A study of Mus musculus with 24 samples.

Results

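Haem breakdown and iron storage genes were followed through muscle injury in isolated mouse muscle stem cells. The group holds 10 genes of the 17111 in the expression table: the haem oxygenases Hmox1 and Hmox2, the biliverdin reductases Blvra and Blvrb, the ferritin chains Fth1 and Ftl1, the transferrin receptor Tfrc, the iron exporter Slc40a1, the ferritin cargo receptor Ncoa4 and the haem transporter Slc48a1. They were taken by symbol, and the group was chosen by measured values of Hmox1, Ftl1 and Fth1 from the genotype comparisons at days 0 and 1 and from the change to day 1 in the knockout. Those 3 comparisons are therefore described here for the 10 genes with no test, and the other 6 comparisons are tested. For Hmox1, Ftl1 and Fth1 the step from day 0 to day 1 in wild type follows arithmetically from those 3. Its test for them is therefore not independent of the choice. Tested comparisons of day 4 with an earlier day share libraries with the choice. For Hmox1, Ftl1 and Fth1 their p-values are therefore not independent of it either.

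Bulk RNA of muscle stem cells was sequenced in 24 libraries, 4 in each of 6 groups. The genotypes were L2A-WT (WT) and L2A-Pax7CreER (KO), the latter named for an inducible Cre recombinase driven by the stem cell promoter Pax7 and aimed at Lamp2a, the splice form of Lamp2 that serves as receptor of chaperone-mediated autophagy. Each was sampled from uninjured muscle (day 0) and 1 and 4 days after cardiotoxin, a venom component that kills muscle fibres, was given into the muscle (50 µL at 10 µM). No group is labelled as carrying the Cre with intact Lamp2a, and the labels do not say whether WT carries the Cre. From the labels, the allele and the loss of Lamp2a therefore cannot be told apart. How the Cre was induced, age and sex are not given in the labels used here. The table gives Lamp2 as a whole gene; its uninjured level was 676 ± 151 (SD, n = 4) for WT and 582 ± 36.0 for KO, which does not show whether the Lamp2a form was lost.

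Haem, the iron-holding ring of myoglobin and haemoglobin, is opened by haem oxygenase into iron, carbon monoxide and biliverdin, and biliverdin reductase turns the last into bilirubin. Free iron is either stored in ferritin, a shell built of heavy and light chains, or sent out of the cell through ferroportin, the product of Slc40a1. Hmox1 is the inducible oxygenase, held down by Bach1 and raised by Nfe2l2 (NRF2), whereas Hmox2 is the constitutive one. Messages of ferritin, ferroportin and the transferrin receptor also carry iron-responsive elements, short hairpins bound by the iron regulatory proteins Aco1 and Ireb2 when iron is low, which blocks translation from a hairpin ahead of the coding part and protects the message when the hairpins lie behind it.

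The hairpins are shown because annotated transcripts of 4 of the 10 genes carry them, in different places. A search of GENCODE M21 protein-coding transcripts (GRCm38) for a bulged C, a fully paired upper stem of 5 bases (G with T allowed) and the loop CAGTGN found 7 sites in 4 of the 10 genes. The same pattern was present in 1.34% of 21877 protein-coding genes. Sites lay in 4 of 5 scanned transcripts of Fth1, 1 of 2 of Ftl1, 1 of 4 of Slc40a1 and, for each site, 1 of 3 of Tfrc. Levels here are of whole genes and do not separate transcripts with a site from those without. Capitals mark the 6-base loop; each element is 27 bases, 5′ to 3′ on the strand of the gene, with T for U.
Fth1, 5′ UTR, chr19:9982733-9982759, plus strand: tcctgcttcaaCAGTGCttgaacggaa
Ftl1, 5′ UTR, chr7:45459780-45459806, minus strand: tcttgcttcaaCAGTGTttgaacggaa
Slc40a1, 5′ UTR, chr1:45925466-45925492, minus strand: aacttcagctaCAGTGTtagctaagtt
Tfrc, 3′ UTR, chr16:32631220-32631246, plus strand: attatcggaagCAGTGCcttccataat
Tfrc, 3′ UTR, chr16:32631599-32631625, plus strand: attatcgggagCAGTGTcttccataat
Tfrc, 3′ UTR, chr16:32631664-32631690, plus strand: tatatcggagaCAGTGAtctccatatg
Tfrc, 3′ UTR, chr16:32631711-32631737, plus strand: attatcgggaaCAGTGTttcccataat

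The stretches before the ferritin starts are shown because both chains were higher in KO at day 1. They are the 150 bases before a RefSeq start in GRCm38.p6. For each gene, only starts with a CCAAT box within the 250 bases before them were eligible. The presence of the box here was thus fixed by that choice. Capitals mark CCAAT boxes, here all on the opposite strand and so printed as ATTGG.
Fth1, chr19:9982496-9982645, plus strand: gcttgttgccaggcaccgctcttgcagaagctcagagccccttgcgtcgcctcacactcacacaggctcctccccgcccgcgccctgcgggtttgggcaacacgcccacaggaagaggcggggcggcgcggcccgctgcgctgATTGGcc
Ftl1, chr7:45459887-45460036, minus strand: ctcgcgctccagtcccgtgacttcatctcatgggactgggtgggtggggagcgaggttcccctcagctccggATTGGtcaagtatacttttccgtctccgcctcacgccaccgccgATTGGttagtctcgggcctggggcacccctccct
RefSeq entries matched 7 of the 10 genes; Hmox1, Slc40a1 and Slc48a1 were not searched for motifs. Within 250 bases before a start, on either strand, CCAAT occurred in 4 of the 7 (Blvra, Fth1, Ftl1 and Tfrc) and in 33.8% of the 32851 entries for all genes. The core of the antioxidant response element bound by NRF2, TGACNNNGC, occurred in 2 of the 7 (Blvra and Ncoa4) and in 10.2% of all entries, and the E-box CACGTG in 0 of the 7 and in 6.02% of all entries. The 7 genes had 14 entries, and a gene was counted if any of its entries matched. The share over all genes is per entry, so these counts cannot be compared with it directly.

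Levels are the deposited normalised values, which are reads scaled to library size and not divided by gene length, so they compare a gene between groups but not 2 genes with each other. Libraries held 11.58 to 22.47 M reads, and 16985 genes were tested, all 10 of the group among them. Differences are on the log2(value + 1) scale with their standard error. That error rests on a spread per gene shared by all 6 groups, not on the spread of the groups compared alone. It is therefore the same for a gene in every comparison. Tests are limma, two-sided, with p adjusted over all genes tested in a comparison and a threshold of 0.05. Muscle stem cell markers were present in every group (all 10 of the list, with summed levels of 1217 to 7343 over the libraries). They differed between genotypes at day 1, with 3 of the 10 higher and 4 lower in KO, where 7.12% and 2.08% of all genes were (limma). At day 1 Pax7 stood at 32.0 in KO and 85.3 in WT, and Myod1 at 1818 in KO and 969 in WT. The part of these differences in the day 1 results was not tested. Libraries of a group were least alike at day 0, where the correlation of 2 libraries was 0.852 to 0.883, against 0.968 to 0.985 at day 1.

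Markers of other cells and mitochondrial reads differed between groups. Mitochondrial reads took 32.4 to 36.8% of a WT library and 50.6 to 55.5% of a KO library at day 4, against at most 15.95% at the earlier days, and the authors' scaling factors ran from 1.16 to 1.30 in WT and from 0.744 to 0.887 in KO. All 20 macrophage markers examined had a row, and their summed level was 1613 to 2122 in WT and 1390 to 1557 in KO at day 4, against 9.89 to 114 over all libraries of days 0 and 1, where Ccr2 was at 0 in both day 0 groups. Of 20 macrophage markers, 20 rose from day 0 to day 4 in WT and 18 in KO, where 25.7% and 22.3% of all genes did (limma). The muscle stem cell marker sum was 1217 to 1402 at day 4, against 2596 to 7343 before. Macrophages handle much haem and iron, and the part of these markers and of the mitochondrial reads in the day 4 results was not tested. Between genotypes, the 11 fibro-adipogenic markers summed to 1025 to 1373 in WT and 2265 to 2634 in KO at day 0, and to 1316 to 1810 and 1940 to 2687 at day 1, and Pdgfra was at 0 in uninjured WT. Of these 11, 3 passed upward and 0 downward in KO at day 0, where 4.82% and 4.93% of all genes were, and 3 were higher and 1 lower at day 1, where 7.12% and 2.08% were (limma). Endothelial markers, of which 7 of 10 had a row, summed to 141 to 273 in WT and 84.8 to 182 in KO at day 0, with Egfl7 at 0 in KO, and to 23.5 to 40.4 and 14.8 to 22.96 at day 1, with Kdr at 0 in WT. From day 0 to day 1, 0 of the 7 rose and 3 fell in WT, and 1 rose and 3 fell in KO, while 0 passed between genotypes at day 0 (limma). Over that step 27.7% of all genes rose and 24.9% fell in WT, and 24.2% and 21.5% in KO. The part of the fibro-adipogenic and endothelial markers in the results was not tested. In bulk samples, fewer cells of a type and less RNA per cell cannot be told apart.

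**Figure D1:**
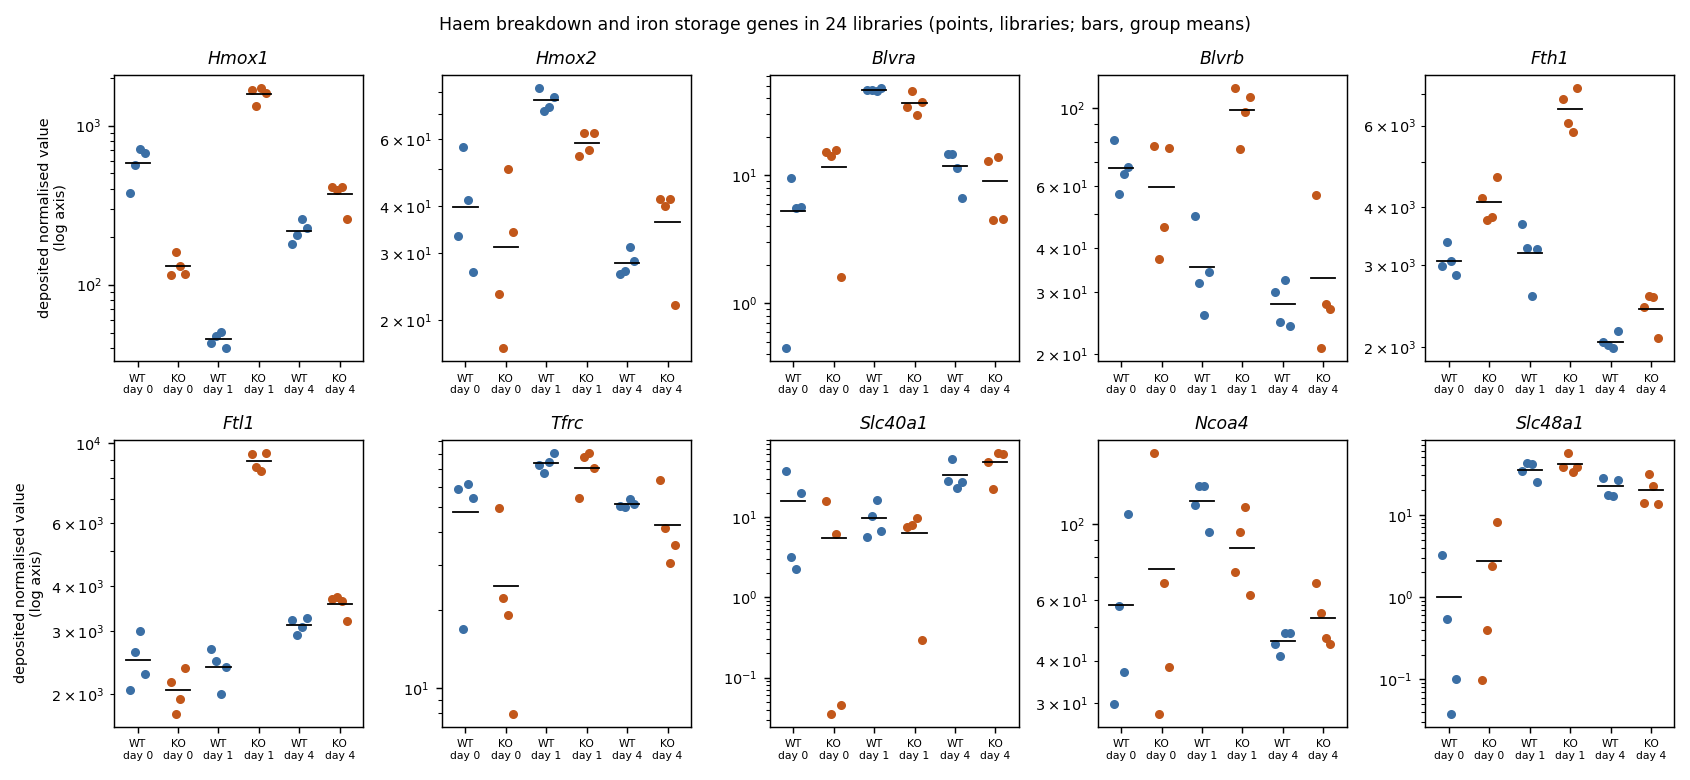
Deposited normalised value of each of the 10 genes (log axis) in every library, by genotype and day. Points are the 4 libraries of a group, blue for WT and orange for KO, and bars are group means. Hmox1 spans 45.4 (WT day 1) to 1585 (KO day 1) in group means, and Slc48a1 is near its floor at day 0.

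Hmox1, the inducible haem oxygenase, was lower at day 1 than at day 0 in WT and higher in KO. In WT its values were 375, 563, 708 and 675 at day 0, 43.25, 47.8, 50.6 and 39.9 at day 1, and 180.5, 205, 259 and 228 at day 4. In KO they were 115, 160, 130 and 117 at day 0, 1676, 1333, 1733 and 1600 at day 1, and 411, 396, 410 and 259 at day 4. WT libraries were thus highest at day 0 and lowest at day 1, and KO libraries lowest at day 0 and highest at day 1, with no overlap between days in either genotype.

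The order of the group means was KO day 1 at 1585 ± 177 (SD, n = 4), WT day 0 at 580 ± 150, KO day 4 at 369 ± 73.6, WT day 4 at 218 ± 33.5, KO day 0 at 131 ± 20.8 and WT day 1 at 45.4 ± 4.75. Neighbours in that order overlapped for WT day 0 with KO day 4 and for KO day 4 with WT day 4. Described without a test, Hmox1 in KO was 4.44-fold lower than in WT at day 0 (difference −2.11 ± 0.18) and 34.9-fold higher at day 1 (5.09 ± 0.18), and within KO it was 12.1-fold higher at day 1 than at day 0. Every KO library of day 1 was above every other library of the series.

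Tested within WT, Hmox1 fell 12.8-fold from day 0 to day 1 (−3.61 ± 0.18, limma adjusted p = 1.02e-13), then rose 4.81-fold to day 4 (2.23 ± 0.18, adjusted p = 4.07e-10). The fall follows from the comparisons behind the choice of the group, so its p-value is not independent of that choice. Over the first step 3 of 7 endothelial markers fell and 0 rose in WT, and 4 of 11 fibro-adipogenic markers fell and 2 rose. Of all genes, 24.9% fell and 27.7% rose (limma). In KO over that step 3 of the 7 and 4 of the 11 fell, and 1 of each rose. Of all genes, 21.5% fell and 24.2% rose there. Over the second step 18 of 20 macrophage markers rose and 0 fell in WT, where 27.8% and 22.6% of all genes did. The part of these markers in the Hmox1 result was not tested. At day 4 Hmox1 was still 2.66-fold below day 0 in WT (−1.38 ± 0.18, adjusted p = 1.12e-06), a call that was lost with quantile normalization (adjusted p = 0.237). Within KO, Hmox1 fell 4.30-fold from day 1 to day 4 (−2.12 ± 0.18, adjusted p = 6.75e-10) and ended 2.83-fold above day 0 (1.48 ± 0.18, adjusted p = 4.49e-07). The KO libraries of both earlier days helped to choose the group, so these p-values are not independent of that choice.

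At day 4 Hmox1 was 1.69-fold higher in KO than in WT (0.74 ± 0.18, limma adjusted p = 0.0419), higher in 3 of 4 KO libraries than in all WT libraries. The lowest KO library, at 259, lay beside the highest WT library. This call was lost with only the 2 groups fitted (adjusted p = 0.0958), with edgeR (0.0516), with no scaling factor (0.521) and when scaled to nuclear-gene reads (0.0798). It was also lost without WT replicate 1, 2 or 4 or without KO replicate 1, 2 or 3, with adjusted p up to 0.156.

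Hmox2, the constitutive haem oxygenase, had its highest mean at day 1 in both genotypes. WT values were 33.3, 57.3, 41.5 and 26.7 at day 0, 82.0, 71.2, 73.0 and 77.3 at day 1, and 26.4, 26.96, 31.2 and 28.7 at day 4. KO values were 23.5, 16.9, 49.9 and 34.2, then 54.3, 62.3, 56.2 and 62.2, then 41.8, 40.0, 41.7 and 21.9. Day 1 libraries lay above all day 0 and day 4 libraries in each genotype, and KO lay below WT at day 1 with no overlap (−0.36 ± 0.27, described).

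In WT, Hmox2 rose 1.91-fold from day 0 to day 1 (0.97 ± 0.27, limma adjusted p = 0.00411) and fell 2.68-fold to day 4 (−1.39 ± 0.27, adjusted p = 0.000165). In KO the fall from day 1 to day 4 was 1.62-fold (−0.72 ± 0.27, adjusted p = 0.0301), but the value was 0.09 when scaled to nuclear-gene reads, and the call was lost with quantile normalization, with DESeq2 (adjusted p = 0.159) and without KO day 1 replicate 2 or 4 or KO day 4 replicate 4. Within a library, reads of Hmox1 were 15.9 times those of Hmox2 on average in WT at day 0, 0.602 times at day 1 and 7.69 times at day 4. In KO the same mean ratios were 5.11, 27.2 and 10.4; these ratios are of reads, not corrected for length, and were added after the values were seen.

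The 2 biliverdin reductases took different courses. Blvra, which encodes the enzyme acting on the main adult form of biliverdin, measured 0.447, 9.52, 5.58 and 5.62 in uninjured WT, 46.2, 46.5, 45.2 and 48.5 on day 1, then 14.8, 14.8, 11.3 and 6.70 at day 4. KO values were 15.2, 14.3, 15.8 and 1.60, then 34.2, 45.7, 29.7 and 37.3, then 12.9, 4.48, 13.97 and 4.58. In both genotypes the day 1 libraries were above all others.

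Blvra rose 8.80-fold from day 0 to day 1 in WT (3.23 ± 0.55, limma adjusted p = 2.98e-05). From day 1 to day 4 it fell 3.91-fold in WT (−1.94 ± 0.55, adjusted p = 0.00539) and 4.09-fold in KO (−2.06 ± 0.55, adjusted p = 0.00337); both falls missed the threshold when scaled to nuclear-gene reads (adjusted p = 0.0538 in WT and 0.0533 in KO). Day 4 against day 0 did not pass in either genotype (WT 1.29 ± 0.55, adjusted p = 0.0615; KO −0.19 ± 0.55, adjusted p = 0.813), although WT passed without WT day 0 replicate 2 or WT day 4 replicate 4, with no scaling factor (0.0170) and when scaled to nuclear-gene reads (0.00301). The genotypes overlapped at day 0 (1.00 ± 0.55) and day 1 (−0.35 ± 0.55), and at day 4 the difference did not pass (−0.47 ± 0.55, adjusted p = 0.920).

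Blvrb, a flavin and biliverdin reductase abundant in red cells, measured 80.8, 57.0, 64.8 and 68.0 in uninjured WT, 49.2, 31.8, 25.8 and 34.1 on day 1, and 29.9, 24.7, 32.5 and 23.9 on day 4. KO values were 78.1, 37.1, 45.9 and 77.0, then 114, 76.4, 97.3 and 107, then 56.4, 20.8, 27.7 and 26.8. At day 1 every KO library exceeded every WT library, 2.80-fold in the means (1.48 ± 0.28, described).

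In WT, Blvrb fell 1.92-fold by day 1 (−0.95 ± 0.28, limma adjusted p = 0.00568) and stood 2.44-fold lower at day 4 than at day 0 (−1.26 ± 0.28, adjusted p = 0.000686), the second call being lost when scaled to nuclear-gene reads (adjusted p = 0.1805). In KO it fell 3-fold from day 1 to day 4 (−1.64 ± 0.28, adjusted p = 2.71e-05). Its day 4 level in KO was below day 0 (−0.87 ± 0.28, adjusted p = 0.0146), with overlap, and that call was lost without KO day 0 replicate 1 or 4, without KO day 4 replicate 2, with only the 2 groups fitted (adjusted p = 0.103) and when scaled to nuclear-gene reads (0.401). Of 9 erythroid markers 1, Alas2, had a row, with a highest value of 1.72 in any library; the other 8 have no value here, and the part of red cell RNA in the Blvrb values was not tested.

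Both ferritin chains together took 0.478 to 0.693% of all reads in the libraries of WT day 0, KO day 0 and WT day 1, and at least 1.33% in KO at day 1. Fth1, the heavy chain that oxidises iron for storage, stood at 2984, 3359, 3056 and 2850 in WT at day 0, 3674, 3259, 2572 and 3250 at day 1, and 2053, 2015, 1986 and 2161 at day 4. KO libraries held 4180, 3756, 3819 and 4637, then 6836, 6087, 5821 and 7244, then 2439, 2574, 2559 and 2093. KO exceeded WT without overlap at day 0 (1.34-fold, 0.42 ± 0.10) and at day 1 (2.04-fold, 1.03 ± 0.10), both described.

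Ftl1, the light chain that helps the iron core form, stood at 2057, 2622, 3004 and 2280 in WT at day 0, 2676, 2471, 2008 and 2391 at day 1, and 3220, 2928, 3085 and 3262 at day 4. KO libraries held 2163, 1771, 1943 and 2373, then 9323, 8572, 8385 and 9400, then 3695, 3735, 3642 and 3203. At day 0 the genotypes overlapped (−0.27 ± 0.10), and at day 1 KO was 3.74-fold higher with no overlap (1.91 ± 0.10), both described. Annotated copies of Ftl1 share sequence with it (73.4% of its 50-base stretches occur in Ftl1-ps1 and 29.7% in Ftl2-ps), so reads may be divided among them; Ftl1-ps1 itself ran from 25.9 to 85.4 in group means.

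Neither ferritin chain passed the test between days 0 and 1 in WT (Fth1 0.05 ± 0.10, limma adjusted p = 0.7004; Ftl1 −0.05 ± 0.10, adjusted p = 0.692), although Fth1 passed upward with quantile normalization (0.54), without a scaling factor (0.31) and when scaled to nuclear-gene reads (0.21). For both chains this step also follows from the comparisons behind the choice of the group. At day 4 in WT, Ftl1 was 1.25-fold above day 0 (0.34 ± 0.10, adjusted p = 0.00943), while Fth1 was 1.49-fold below it (−0.57 ± 0.10, adjusted p = 2.90e-05), a direction that turned with quantile normalization (0.11) and when scaled to nuclear-gene reads (0.28). At day 4 in KO, Ftl1 was 1.73-fold above day 0 (0.80 ± 0.10, adjusted p = 1.06e-06) and Fth1 1.70-fold below it (−0.76 ± 0.10, adjusted p = 6.44e-07), the latter not passing when scaled to nuclear-gene reads (adjusted p = 0.131).

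From day 1 to day 4 both chains fell in KO, Fth1 2.69-fold (−1.43 ± 0.10, limma adjusted p = 8.65e-12) and Ftl1 2.50-fold (−1.32 ± 0.10, adjusted p = 1.40e-10). The KO libraries of day 1 helped to choose the group, so these p-values are not independent of that choice. In WT over the same days Ftl1 rose 1.31-fold (0.39 ± 0.10, adjusted p = 0.00271) and Fth1 fell 1.55-fold (−0.62 ± 0.10, adjusted p = 8.48e-06), though Fth1 stood at 0.07 when scaled to nuclear-gene reads. At day 4 neither chain passed between genotypes (Fth1 0.23 ± 0.10, adjusted p = 0.411; Ftl1 0.19 ± 0.10, adjusted p = 0.644). Without the scaling factor both turned to −0.32 and −0.36 and passed, on a scale where the median of all genes moved by −0.45.

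The ratio of Ftl1 to Fth1 reads within a library does not depend on any scaling factor. It was added after the values were seen and is given with no test. In WT it was 0.813 ± 0.123 (SD, n = 4) at day 0, 0.751 ± 0.0237 at day 1 and 1.52 ± 0.0518 at day 4. In KO it was 0.502 ± 0.0210, 1.38 ± 0.0618 and 1.48 ± 0.0510. KO libraries were below all WT libraries at day 0 and above them at day 1, and the genotypes overlapped at day 4.

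**Figure D2:**
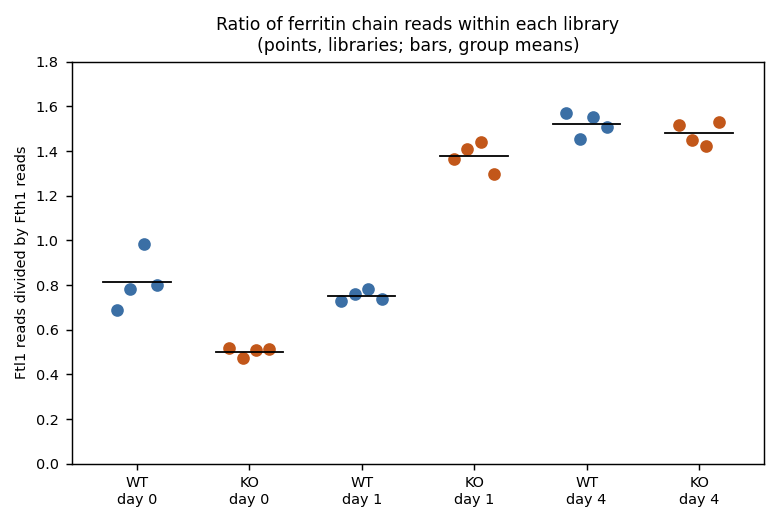
Reads of Ftl1 divided by reads of Fth1 in each library, by genotype and day, with bars at group means (4 libraries a group). KO at day 1 lies at 1.30 to 1.44, near both day 4 groups, while WT at day 1 lies at 0.729 to 0.781.

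Tfrc, which brings transferrin-bound iron into the cell, carries the 4 hairpins of the 3′ UTR shown above. It stood at 58.6, 16.9, 61.2 and 54.4 in WT at day 0, 72.8, 67.7, 74.8 and 80.9 at day 1, and 50.7, 49.9, 53.6 and 51.2 at day 4. KO libraries held 49.6, 22.2, 19.2 and 7.99, then 54.1, 78.2, 81.0 and 71.0, then 63.3, 41.5, 30.6 and 35.9. Day 1 was highest in both genotypes, with no overlap with day 0, and the genotypes overlapped at each day.

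Of the 6 tested comparisons, that of day 4 with day 0 in KO passed for Tfrc (1.73-fold higher, 0.97 ± 0.38, limma adjusted p = 0.0454). That call was lost with only the 2 groups fitted (adjusted p = 0.159), with edgeR (0.129), without a scaling factor (0.165) and without any one of KO day 0 replicates 2, 3 and 4 or KO day 4 replicates 1, 2 and 4. The step to day 1 in WT missed the threshold (0.77 ± 0.38, adjusted p = 0.0943) but passed with no scaling factor (0.0292) and when scaled to nuclear-gene reads (0.0462). Day 4 against day 0 in WT passed when scaled to nuclear-gene reads (0.0191), and the steps from day 1 to day 4 passed downward with only the 2 groups fitted (0.00110 in WT and 0.0193 in KO). The difference between genotypes at day 4 was −0.31 ± 0.38 (adjusted p = 0.927).

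Slc40a1, which encodes ferroportin, the iron exporter, was low and scattered before day 4. It stood at 37.0, 3.17, 2.27 and 20.1 in WT at day 0, 5.63, 10.2, 16.1 and 6.67 at day 1, and 28.3, 53.0, 23.01 and 27.4 at day 4. KO libraries at day 0 held 15.8, 0.0358, 6.16 and 0.0457, of which the second and the fourth had 0 reads, where a floor of 3 reads allows a value of up to 0.320 in any library. At day 1 they held 7.47, 7.85, 9.73 and 0.294, and at day 4 48.7, 22.2, 62.9 and 61.6.

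In KO, Slc40a1 rose 8.86-fold from day 0 to day 4 (3.78 ± 0.83, limma adjusted p = 0.000789) and 7.71-fold from day 1 to day 4 (3.03 ± 0.83, adjusted p = 0.00404), with no overlap. In WT the day 4 libraries were all above those of day 1, yet neither comparison passed (day 4 against day 0, 1.66 ± 0.83, adjusted p = 0.110; against day 1, 1.70 ± 0.83, adjusted p = 0.0922). The first passed without WT day 0 replicate 1 (adjusted p = 0.0325), with no scaling factor (0.0486) and when scaled to nuclear-gene reads (0.0154). The second passed with only the 2 groups fitted (adjusted p = 0.000499), with a pseudocount of 5 (0.0282) and when scaled to nuclear-gene reads (0.0203). Macrophage markers rose over the same days in both genotypes, as given above. At day 4 the genotype difference was 0.52 ± 0.83 (adjusted p = 0.960).

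Ncoa4, the receptor that carries ferritin to the lysosome for breakdown, stood at 30.0, 57.6, 37.1 and 107 in WT at day 0, 114, 129, 129 and 95.1 at day 1, and 44.8, 41.2, 48.2 and 48.3 at day 4. KO libraries held 162, 28.0, 67.6 and 38.3, then 72.4, 94.6, 113 and 62.2, then 67.3, 55.0, 46.7 and 44.6. The genotypes overlapped at every day (0.19 ± 0.38, −0.47 ± 0.38 and 0.21 ± 0.38 at days 0, 1 and 4, the last with limma adjusted p = 0.968).

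In WT, Ncoa4 rose 2.01-fold to day 1 (1.16 ± 0.38, limma adjusted p = 0.0133), a call lost without WT day 0 replicate 1 (adjusted p = 0.0608), and fell 2.56-fold to day 4 (−1.33 ± 0.38, adjusted p = 0.00570), lost with quantile normalization (0.0705) and when scaled to nuclear-gene reads (0.148). In KO the step from day 1 to day 4 did not pass (−0.65 ± 0.38, adjusted p = 0.164), except with only the 2 groups fitted (0.0256).

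Slc48a1, which moves haem out of the endosome and lysosome into the cytosol, was low before injury. WT libraries at day 0 held 47, 7, 0 and 1 reads (values of 3.27, 0.547, 0.0385 and 0.0997), and KO libraries 1, 5, 43 and 89 reads (0.0995, 0.394, 2.40 and 8.17). On day 1 the WT values were 33.9, 42.1, 41.0 and 24.7 and the KO values 38.2, 56.5, 32.6 and 38.1. On day 4 WT had 28.0, 17.4, 16.9 and 26.5 and KO had 13.9, 30.9, 22.3 and 13.7. All injured libraries were above all uninjured ones.

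Slc48a1 rose from day 0 to day 1 in WT (4.43 ± 0.52, limma adjusted p = 1.34e-07) and from day 0 to day 4 in WT (3.77 ± 0.52, adjusted p = 2.09e-06) and in KO (2.93 ± 0.52, adjusted p = 6.89e-05). These differences depend on the pseudocount because the day 0 levels are near its size. Neither step from day 1 to day 4 passed (WT −0.66 ± 0.52, adjusted p = 0.299; KO −1.05 ± 0.52, adjusted p = 0.0958), but both passed with only the 2 groups fitted (0.0184 in WT and 0.0115 in KO), and that in KO also with a pseudocount of 5 (0.0125). Genotypes overlapped at all 3 days.

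**Figure D3:**
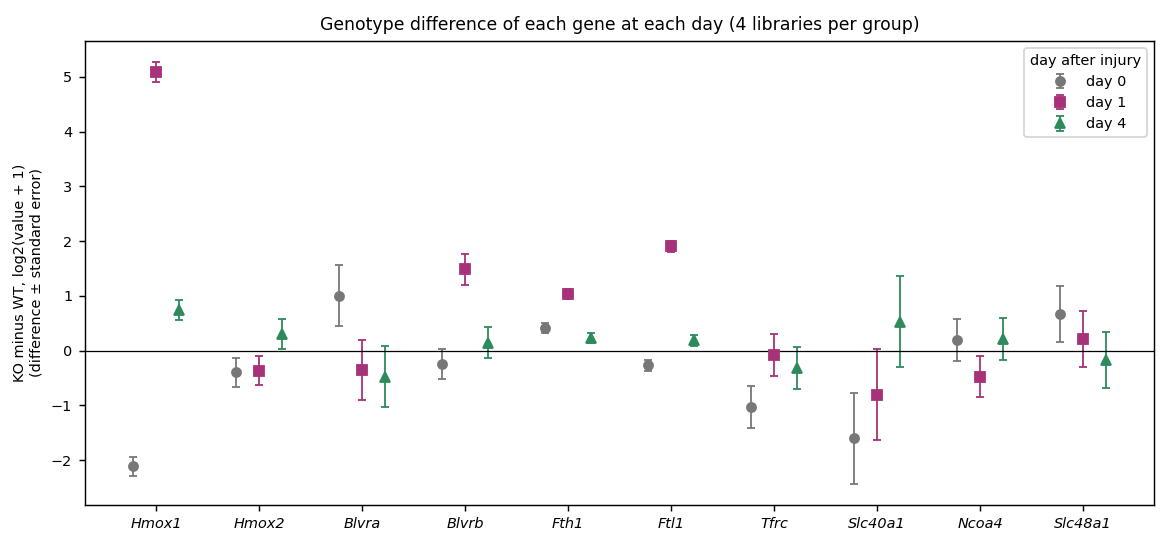
KO minus WT on the log2(value + 1) scale, with standard errors, for each gene at days 0, 1 and 4 (4 libraries a group). Hmox1 lies at −2.11 at day 0 and 5.09 at day 1, Ftl1 at 1.91 at day 1, and all 10 genes within 0.75 of 0 at day 4.

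Counted over the 10 genes, the genotype comparisons at days 0 and 1 were read as non-overlap of the 4 and 4 libraries, and the counts rest on values that helped to choose the group. At day 0, 1 gene was higher (Fth1) and 1 lower (Hmox1) in KO without overlap, where 3.23% of all genes tested were higher and 3.74% lower. At day 1, 4 genes were higher (Hmox1, Blvrb, Fth1 and Ftl1) and 1 lower (Hmox2), where 13.9% and 12.3% of all genes were. Within KO, 7 genes were higher at day 1 than at day 0 and 0 lower, where 20.9% and 19.3% of all genes were. At day 4, 1 of 10 passed upward in KO (Hmox1) and 0 downward, against 0.53% and 0.524% of all genes (limma).

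From day 0 to day 1 in WT, 4 of the 10 genes rose (Hmox2, Blvra, Ncoa4 and Slc48a1) and 2 fell (Hmox1 and Blvrb), where 27.7% of all genes rose and 24.9% fell (limma); the median over the 10 was 0.41 and over all genes −0.01. Day 4 against day 0 in WT gave 2 higher and 3 lower, where 25.7% and 18.9% of all genes were. In KO the same comparison gave 5 higher and 2 lower, where 22.3% and 18.2% were. From day 1 to day 4, WT gave 2 higher and 4 lower (27.8% and 22.6% of all genes) and KO 1 higher and 6 lower (26.2% and 23.4% of all genes), with medians over the 10 of −0.57 in WT and −1.18 in KO against 0.22 and 0.18 over all genes. The comparisons with a common day share its libraries. For Hmox1, Ftl1 and Fth1 the step to day 1 in WT also follows from the comparisons that helped to choose the group.

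**Figure D4:**
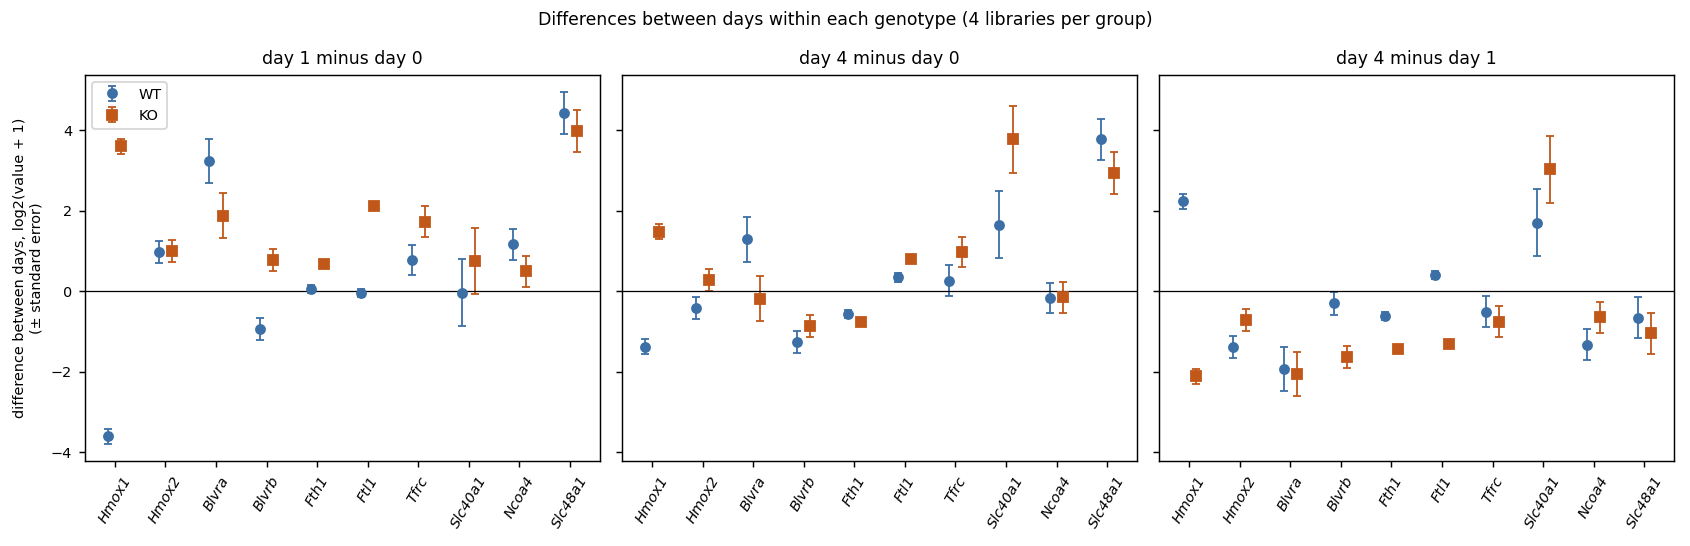
Differences between days within WT (blue) and KO (orange) on the log2(value + 1) scale, with standard errors (4 libraries a group). Between days 0 and 1 Hmox1 lies at −3.61 in WT and 3.60 in KO, whereas Hmox2 lies at 0.97 and 1.00.

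Genes around this group were taken from fixed lists of haem synthesis, haem transport, iron uptake, iron export, iron sensing, mitochondrial iron and Hmox1 regulation, 55 of whose 62 genes were tested. The lists were chosen with earlier results of these data known, so their tests are not independent of those results. At day 0, 4 of the 55 were higher and 1 lower in KO (limma; 4.82% and 4.93% of all genes). The largest of these was Nfs1, the cysteine desulfurase of iron-sulphur cluster assembly (2.66 ± 0.65, adjusted p = 0.0103), a call lost with only the 2 groups fitted, edgeR and DESeq2. Slc11a2 (DMT1), the iron importer of the gut and of endosomes, was the 1 that was lower (−0.71 ± 0.22, adjusted p = 0.0401), and that call was lost under 4 other settings and without any one of WT replicate 3 and KO replicates 1 and 3.

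At day 1, 8 of the 55 were higher and 2 lower in KO (limma; 7.12% and 2.08% of all genes). Both regulators of Hmox1 named above were higher. Bach1, its repressor, stood at 30.6 in KO and 15.3 in WT (0.96 ± 0.23, adjusted p = 0.00679), and Nfe2l2, its activator, at 545 and 376 (0.53 ± 0.15, adjusted p = 0.0224). Both calls were lost without the scaling factor (adjusted p = 0.0770 for Bach1 and 0.362 for Nfe2l2) and when scaled to nuclear-gene reads (0.0594 and 0.293), and that of Nfe2l2 also with quantile normalization (0.492), with DESeq2 (0.0572) and without any one of WT replicates 2 and 4 and KO replicates 1 and 3. Slc11a2 was higher in KO (0.86 ± 0.22, adjusted p = 0.0116), a call lost without the scaling factor (0.157), with quantile normalization (0.0515) and when scaled to nuclear-gene reads (0.123).

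The largest rise on the lists at day 1 was that of Glrx5, a glutaredoxin of iron-sulphur cluster transfer (1.68 ± 0.44, limma adjusted p = 0.0133), lost without WT replicate 3 or KO replicate 4. Fech, the ferrochelatase that puts iron into haem, was lower in KO (46.9 against 88.5; −0.92 ± 0.23, adjusted p = 0.0109), and lost without WT replicate 2 or KO replicate 4. Cp, the ferroxidase ceruloplasmin that works beside ferroportin, showed the largest fall (103 against 221; −1.11 ± 0.20, adjusted p = 0.000547). At day 4, 1 of the 55 was higher and 0 lower in KO, Cp again (0.84 ± 0.20, adjusted p = 0.0419), lost under 5 other settings and without any one of 6 libraries.

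Between days 0 and 1 in WT, 23 of the 55 rose and 12 fell, against 27.7% and 24.9% of all genes. Of the 8 haem synthesis genes, 6 rose and 0 fell, with a median of 2.06 where that of all genes was −0.01. Alad, the second enzyme of the pathway, went from 1.16 to 83.3 (5.46 ± 0.54, limma adjusted p = 1.07e-08), Fech from 32.5 to 88.5 (1.42 ± 0.23, adjusted p = 1.54e-05) and Alas1, the rate-limiting enzyme, from 25.9 to 53.0 (1.14 ± 0.38, adjusted p = 0.0144), the last lost with quantile normalization and without WT day 0 replicate 4. In KO over the same days 17 of the 55 rose and 8 fell (24.2% and 21.5% of all genes), with 5 of 8 synthesis genes up and 1 down. Alad went from 2.38 to 63.4 in KO (4.74 ± 0.54, adjusted p = 1.38e-07). At day 0 Alad had 1 to 37 reads a library in WT and 2 to 85 in KO, so the size of its rises depends on the pseudocount.

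Of 7 Hmox1 regulators, 4 fell and 2 rose from day 0 to day 1 in WT, where 24.9% of all genes fell and 27.7% rose. Bach1 fell from 64.4 to 15.3 (−2.00 ± 0.23, limma adjusted p = 9.53e-08), Nfe2l2 from 703 to 376 (−0.88 ± 0.15, adjusted p = 2.67e-05), and Maff, a small Maf partner of both, showed the largest fall of the lists (−2.25 ± 0.31, adjusted p = 1.41e-06). In KO, Bach1 fell from 57.5 to 30.6 (−0.85 ± 0.23, adjusted p = 0.00353), and Nfe2l2, at 581 and 545, did not pass (−0.08 ± 0.15, adjusted p = 0.688). From day 1 to day 4 Bach1 rose in WT (1.96 ± 0.23, adjusted p = 1.65e-07) and in KO (0.93 ± 0.23, adjusted p = 0.00152), whereas Nfe2l2 fell in both (−1.41 ± 0.15, adjusted p = 3.25e-08, and −1.63 ± 0.15, adjusted p = 2.34e-09).

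Of the iron regulatory proteins that bind the printed hairpins, Aco1 rose from day 0 to day 1 in WT (2.999 ± 0.54, limma adjusted p = 5.97e-05) and in KO (3.19 ± 0.54, adjusted p = 3.74e-05). At day 0 Aco1 had 8 to 220 reads a library in WT and 4 to 125 in KO. From day 1 to day 4 Aco1 fell in KO (−1.49 ± 0.54, adjusted p = 0.0265). That call was lost with edgeR, with DESeq2 and when scaled to nuclear-gene reads. It was also lost without KO day 1 replicate 1 or 2 or KO day 4 replicate 2 or 3. In WT that step did not pass (−0.77 ± 0.54, adjusted p = 0.246) but passed with only the 2 groups fitted (0.00949). Ireb2 fell from day 0 to day 1 in WT (−0.70 ± 0.26, adjusted p = 0.0275), and in KO that step did not pass (−0.53 ± 0.26, adjusted p = 0.104). The call in WT was lost without any one of replicates 1, 2 and 3 of WT at day 0 or day 1. Ireb2 rose from day 1 to day 4 in WT (1.41 ± 0.26, adjusted p = 0.000103) and in KO (1.75 ± 0.26, adjusted p = 6.04e-06). Fbxl5, the iron-sensing ligase subunit that marks Ireb2 for breakdown, rose to day 1 in WT (1.34 ± 0.46, adjusted p = 0.0170), lost without WT day 0 replicate 1 or 3. In KO its value was 0.72 ± 0.46 (adjusted p = 0.211). From day 1 to day 4 Fbxl5 fell in WT (−1.22 ± 0.46, adjusted p = 0.0310), and in KO it did not pass (−0.21 ± 0.46, adjusted p = 0.725). The call in WT was lost with quantile normalization (0.216) and when scaled to nuclear-gene reads (0.327). It was also lost without any one of WT day 1 replicates 2, 3 and 4 or WT day 4 replicates 1, 2 and 3.

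Day 4 against day 0 gave 20 of the 55 higher and 12 lower in WT, where 25.7% and 18.9% of all genes were, and 14 higher and 11 lower in KO, where 22.3% and 18.2% were. Cp fell most in both, from 699 to 17.1 in WT (−5.36 ± 0.20, limma adjusted p = 4.55e-16) and from 763 to 29.9 in KO (−4.65 ± 0.20, adjusted p = 8.71e-15). Slc39a14, a zinc and iron importer, fell in WT (−1.89 ± 0.17, adjusted p = 2.37e-09) and in KO (−1.80 ± 0.17, adjusted p = 6.23e-09). From day 1 to day 4, 7 rose and 22 fell in each genotype, where 27.8% of all genes rose and 22.6% fell in WT and 26.2% and 23.4% in KO. The mitochondrial iron importer Slc25a37 (mitoferrin) rose over those days in WT (1.93 ± 0.33, adjusted p = 3.76e-05) and in KO (1.44 ± 0.33, adjusted p = 0.000881).

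Likeness of pattern was measured by Pearson's r of log2(value + 1) over the 24 libraries, which share their groups, among 8385 genes with a mean of at least 8. The 6 genes most like Hmox1 were Pabpc1 (r = 0.876), Txnip (0.874), Sept9 (0.867), Ctdsp2 (0.866), Capns1 (0.855) and Ubald2 (0.831). Txnip, which encodes a thioredoxin-binding protein, had group means of 170, 43.7 and 219 in WT and 87.8, 329 and 264 in KO at days 0, 1 and 4. Closest to Slc40a1 were Phactr4 (0.890), Zfp266 (0.821) and Adamts7 (0.818), and closest to Tfrc C87436 (0.914), Osbpl2 (0.866) and Slc39a7 (0.857). Among the 10 genes themselves the highest values were 0.806 for Blvrb with Fth1 and 0.756 for Hmox1 with Ftl1.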

How the data were processed

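Total RNA went into SMART-Seq v4 libraries, per the labels' protocols; FastQC, STAR, RSEM and limma and the build mm39 are named, without versions, per the submitters' processing notes. The values deposited by the authors are a normalised signal, not logged: each value equals a whole count plus 0.5 over a scaled library size, and 100% of values came back as whole reads within 0.02. A gene was tested if at least 4 libraries had a value of at least 1 (16985 of 17111). With R 4.3.3, limma 3.58.1 (trend on) was fitted to log2(value + 1) of all 24 libraries with 6 group means; p was adjusted by Benjamini-Hochberg within each of 9 contrasts. The model was tested on simulated counts. Alternatives were count models of those reads (edgeR 4.0.16; DESeq2 1.42.0), other filters, pseudocounts, scalings, a block on replicate number and each library left out.

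The 10 genes and the lists were chosen with earlier results of these data known. Named list genes were 12 set by name (those with little to show are left out of the text) and, per comparison, the largest rise and fall among calls with a mean of at least 8. For 45 rows whose symbol was absent or resembled a date, the identifier gave a symbol in 35. The labels do not say whether replicates are separate animals, so p-values measure the spread between these libraries, which may be technical; all carry batch label 1. Libraries with the same replicate number were not treated as pairs, and whether they share an animal is not known. Floors cover counting error only. Strand use in counting is not given in the sources used here. Sequences come from RefSeq (GRCm38.p6) and GENCODE M21 (GRCm38), another build than mm39.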

Additional observations from a re-analysis of the deposited data

Results flagged for a closer look

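In 5 of the 60 gene-by-group sets of 4 libraries, 1 library stood apart from the other 3 by more than Dixon's limit, where chance gives about 1 set in 20. Of these, 2 were the same library, KO day 4 replicate 4, which had 259 for Hmox1, the inducible haem oxygenase (others 396 to 411), and 21.9 for Hmox2, the constitutive one (others 40.0 to 41.8). The others were Blvra at 1.60 in KO day 0 replicate 4 (others 14.3 to 15.8), Tfrc, the transferrin receptor, at 16.9 in WT day 0 replicate 2 (others 54.4 to 61.2), and Slc48a1, the haem transporter, at 3.27 in WT day 0 replicate 1 (others 0.0385 to 0.547).

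For 2 genes, groups did not overlap in either of 2 matching comparisons, and the 2 comparisons ran in opposite directions. These differences were not tested. For Hmox1 the KO minus WT difference at day 1 exceeded that at day 0 by 7.21 on the log2 scale, which is also the amount by which the change from day 0 to day 1 in KO exceeded that in WT (7.21). The change from day 0 to day 4 was 2.86 larger in KO than in WT, and that from day 1 to day 4 differed by −4.35. For Ftl1, the ferritin light chain, the change from day 1 to day 4 in KO minus that in WT was −1.72.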

How the results depend on the processing

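Of the single-gene values of the 10 genes in tested comparisons under other settings, 615 kept their direction and side of the threshold, 19 lost and 20 gained the call and 6 reversed; with 1 library left out, 458 kept both, 19 lost and 3 gained the call. With quantile normalization Fth1 in WT from day 0 to day 4 reversed to 0.11; scaled to nuclear-gene reads (chosen after seeing the data) it reversed to 0.28, Fth1 in WT from day 1 to day 4 to 0.0657 and Hmox2 in KO from day 1 to day 4 to 0.0943. With no scaling factor (also chosen after seeing the data) KO against WT at day 4 reversed to −0.32 for Fth1 and −0.36 for Ftl1. On the lists, scaling to nuclear-gene reads reversed Bach1 to 0.80 and Slc11a2 to 0.19 in WT from day 0 to day 4. The cause of these changes was not tested.

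Counts over the 10 genes moved as follows. In KO from day 0 to day 4 the 2 lower calls became 1 with only the groups compared and 0 with nuclear-gene reads. In WT from day 0 to day 4 the 2 higher calls became 4 with no scaling factor and 6 with nuclear-gene reads, and the 3 lower calls 1 with quantile normalization and with nuclear-gene reads; from day 1 to day 4 the 4 lower calls became 1 with nuclear-gene reads. At day 4 the 1 call higher in KO became 0 with only the groups compared, edgeR, no scaling factor and nuclear-gene reads, and 2 lower calls appeared with no scaling factor. The 1 gene lower without overlap at day 1 became 2 with DESeq2 and 3 with either of those scalings. With 1 library left out, these ranges were 1 to 2 (KO, day 0 to day 4, lower), 0 to 1 (genotypes at day 4, higher), 1 to 2 (genotypes at day 0, each direction) and 1 to 2 (genotypes at day 1, lower).

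Calls among the 55 list genes went from 25 to 16 in KO from day 0 to day 4 with only the groups compared and from 32 to 20 in WT with edgeR. Between genotypes at day 0 they went from 5 to 2 (quantile, edgeR) and 0 (only the groups compared), and from 2 to 7 with 1 library left out. At day 1 they went from 10 to 5 (quantile), 21 (only the groups compared), 6 (DESeq2) and 4 (no scaling factor, nuclear-gene reads), and from 6 to 8 with 1 library left out. At day 4 the 1 call became 2 (quantile), 3 (DESeq2, no scaling factor) or 0 (only the groups compared, edgeR, nuclear-gene reads), and 0 to 1 with 1 library left out. Same-numbered replicates deviated little together: at most 1 of 4 pairs in any comparison had a correlation over 0.1, the highest being 0.27. At most 3 of 4 libraries correlated best with their own number. Whether same numbers share an animal is not given in the labels and cannot be settled from these correlations. A replicate block took the 1 call at day 4 (Cp) to 0. Over all genes, calls between genotypes ran from 68 to 2536 at day 0 (1656 as reported), 996 to 3958 at day 1 (1562) and 85 to 1869 at day 4 (179).

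The share of higher calls among all genes was 49.5, 77.4 and 50.3% between genotypes at days 0, 1 and 4. It was 62.8, 48.2 and 3.10% with no scaling factor and 64.6, 53.9 and 30.5% with nuclear-gene reads, 54.8% at day 1 and 60.9% at day 4 with only the groups compared, and 64.4% and 63.5% with DESeq2. With nuclear-gene reads it also went from 57.7 to 83.7% (WT, day 0 to day 4), 55.1 to 75.5% (WT, day 1 to day 4), 55.2 to 77.4% (KO, day 0 to day 4) and 52.8 to 76.2% (KO, day 1 to day 4), and the median of all genes moved by 0.68, 0.52, 0.47 and 0.57. Depth limits Slc48a1 and Slc40a1 at day 0, where some libraries had 0 reads.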
